A study of Mus musculus with 3 samples.

Results

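The genes of sterol and fatty acid synthesis were examined in a mouse cell line from small cell lung cancer (SCLC), numbered 3 in the labels, in cultures where Kdm1a had been targeted and in a vector control. Members were the 29 symbols of a named list of enzymes and regulators of these pathways, matched to the symbol column of the deposited table; all 29 were found among its 24523 genes. The groups were the Kdm1a knock-out (2 libraries, infected with a lentiviral CRISPR vector carrying guide sg1 or guide sg2 against Kdm1a) and the control vector (1 library, infected with the vector Crispr-V2, for which the labels name no guide). All 3 cultures carried a lentiviral vector and were kept in puromycin for at least 1 week. The labels name 1 cell line and no clone, and do not say whether the libraries came from separate cultures beyond their separate infections, so p-values measure the spread between these libraries, which may be technical.

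SCLC is a lung tumour that commonly carries neuroendocrine markers, and Kdm1a encodes LSD1, a histone lysine demethylase that acts with corepressors. Cholesterol is built from acetyl-CoA through mevalonate, isoprenoid units, squalene and lanosterol, while fatty acids are built from the same precursor through malonyl-CoA and are then elongated and desaturated. Many genes of both routes are targets of the SREBP transcription factors, which are held in the endoplasmic reticulum by the escort protein SCAP and the INSIG retention proteins when sterol is plentiful, and are cut and sent to the nucleus when it is scarce.

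The deposited counts summed to 44667861 for sg1, 51066078 for sg2 and 43424212 for the control, of which the 29 genes took 0.514%, 0.477% and 0.540%. Kdm1a had 29.1 RPKM (the authors' read counts per kilobase of gene and library size) with sg1 and 36.7 RPKM with sg2, against 86.8 RPKM in the control. It stood at 33.1% of its control level with sg1 and 42.7% with sg2 (log2 fold change -1.40, SE 0.404), just short of the threshold (adjusted p = 0.0537). Kdm1a passed in 4 of 9 alternative tests, with adjusted p between 0.0166 and 0.127. All 10 neuroendocrine markers examined were detected in all libraries. Their summed level was 3111 CPM (counts scaled to a common library size) with sg1 and 2225 CPM with sg2, against 4751 CPM in the control, and 2 of the 10, Neurod1 and Chga, fell.

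Of the 29 genes, 1 passed edgeR's quasi-likelihood test at an adjusted p under 0.05, the desaturase gene Scd1, which was higher in the knock-out, and 0 were called lower. Among all 15936 genes tested, 8.03% were called, 6.33% higher and 1.70% lower. At an unadjusted p under 0.05 there were 2 members, Scd1 and Me1, and 18.3% of all genes. The control level lay above that of both guides for 18 members, below both for 5 and between the guides for 6, while 37.8% of all genes tested lay lower with both guides and 41.2% higher. The guides share the single control library, so this count depends on that library for every gene at once. The median log2 fold change of the members was -0.23 with sg1 and -0.12 with sg2, beside 0.02 and 0.05 over all genes tested. The median size of the fitted log2 fold change was 0.40 for members and 0.53 for all genes tested, or 0.39 for the 9262 genes whose mean level fell in the members' range of 15.5 to 1169 CPM. These RNA levels are of whole cultures, in which fewer cells of a type and less RNA per cell cannot be told apart.

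**Figure D1:**
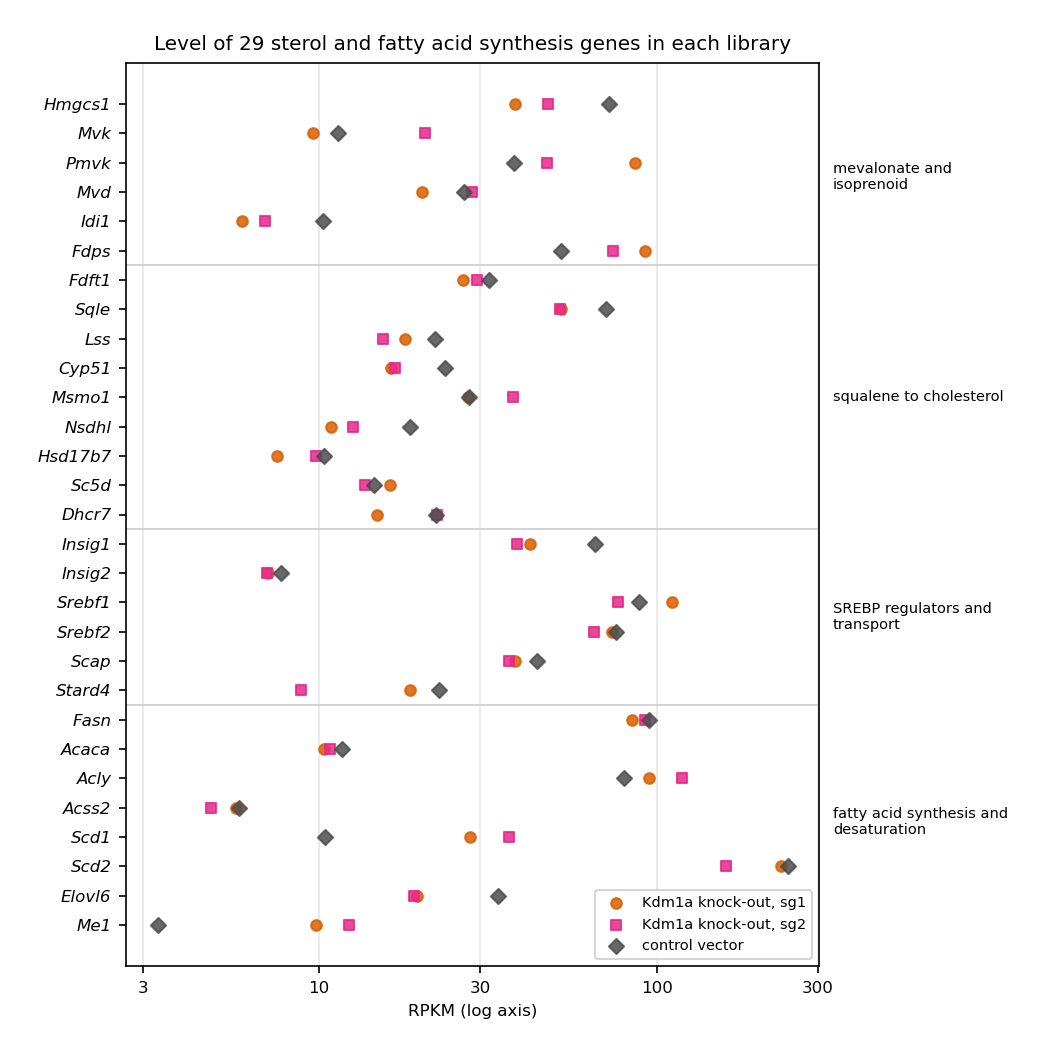
Level of each of the 29 genes in the 2 knock-out libraries (sg1, circles; sg2, squares) and the control library (diamonds), in the authors' RPKM on a log axis, grouped by role. Each point is 1 library; Scd1 and Me1 lay clearly to the right of the control with both guides, and Hmgcs1, Idi1, Nsdhl, Insig1 and Elovl6 to its left.

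The promoters of 4 members are shown, chosen after their values were seen, as examples from both sides of the control: Hmgcs1, Idi1 and Insig1 lay lower with both guides, and Me1 lay higher. The windows hold 250 bases before to 50 bases after the annotated start (RefSeq, GRCm38.p6), and capitals mark matches to CCAAT, the box bound by NF-Y, on either strand and to TCACNCCAC, the core of a sterol regulatory element.
Hmgcs1, chr13:119690101-119690400, plus strand: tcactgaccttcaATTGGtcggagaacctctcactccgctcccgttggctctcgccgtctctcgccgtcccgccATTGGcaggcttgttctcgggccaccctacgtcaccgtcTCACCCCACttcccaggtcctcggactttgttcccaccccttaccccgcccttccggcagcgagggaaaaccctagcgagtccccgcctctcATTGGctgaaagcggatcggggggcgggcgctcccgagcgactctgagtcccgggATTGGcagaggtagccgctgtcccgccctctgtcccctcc
Idi1, chr13:8885356-8885655, plus strand: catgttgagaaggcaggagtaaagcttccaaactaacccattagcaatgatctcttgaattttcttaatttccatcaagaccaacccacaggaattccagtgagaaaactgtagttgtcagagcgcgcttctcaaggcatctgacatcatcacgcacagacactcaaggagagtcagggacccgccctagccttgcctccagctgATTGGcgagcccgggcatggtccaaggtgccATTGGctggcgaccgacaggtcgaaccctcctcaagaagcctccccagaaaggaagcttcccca
Insig1, chr5:28071162-28071461, plus strand: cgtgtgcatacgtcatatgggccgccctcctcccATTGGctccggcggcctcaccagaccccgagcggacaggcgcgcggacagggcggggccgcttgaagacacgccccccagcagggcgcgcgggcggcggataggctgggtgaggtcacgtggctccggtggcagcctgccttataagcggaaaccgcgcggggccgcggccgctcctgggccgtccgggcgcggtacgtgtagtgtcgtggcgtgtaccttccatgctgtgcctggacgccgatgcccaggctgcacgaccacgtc
Me1, chr9:86695865-86696164, minus strand: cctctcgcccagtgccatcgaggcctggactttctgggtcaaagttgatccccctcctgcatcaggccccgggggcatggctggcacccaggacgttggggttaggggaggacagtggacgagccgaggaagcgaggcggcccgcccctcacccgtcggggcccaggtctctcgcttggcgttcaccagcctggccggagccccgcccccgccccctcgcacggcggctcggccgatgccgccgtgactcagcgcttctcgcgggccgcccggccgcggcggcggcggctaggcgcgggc
The sterol regulatory element core was matched at bases 114 to 122 of the Hmgcs1 window, which also held 4 NF-Y boxes. The Idi1 window held 2 NF-Y boxes, the Insig1 window 1 and this Me1 window 0. A second Me1 window, at another annotated start, held 1 NF-Y box and is not printed. The window of Elovl6, which lay lower with both guides, held 0 matches to either motif and is not printed.

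Promoter windows were matched for 23 of the 29 members, in 32 windows, some of which overlap or belong to 1 gene. The NF-Y box, CCAAT, was found in 21 of 32 member windows (65.6%) and in 37.4% of all 32851 windows of the same length. The GC box bound by Sp1, GGGCGG, was found in 23 member windows (71.9%) and in 35.7% of all, and the E-box CANNTG in 27 (84.4%) and in 72.3%. The sterol regulatory element core TCACNCCAC was found in 1 member window (3.13%) and in 1.24% of all. Each motif was searched on both strands. Only exact matches were counted, so a stretch 1 base off the sterol core, such as TCACCCCAT in the Srebf2 window, was left out. In member windows, 5 pairs of matches to different motifs shared bases, each of them an E-box with a GC box or an NF-Y box. Base composition was not matched between members and other genes, and the windows with the NF-Y box included members on both sides of the control, such as Nsdhl (4 boxes, lower with both guides) and Acly (1 box, higher with both).

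The entry of acetyl units into sterols was examined first. Hmgcs1 encodes the synthase that makes HMG-CoA, the precursor of mevalonate, and its window is the one with the sterol regulatory element core (GRCm38 chromosome 13, 119690351 to 119708260). It had 37.99 RPKM with sg1 and 47.6 RPKM with sg2, against 72.1 RPKM in the control. Both knock-out libraries thus lay under the control, at 0.521 (95% counting interval 0.504 to 0.538) and 0.667 (0.648 to 0.687) of its level, but the difference missed the threshold (log2 fold change -0.75, SE 0.408, adjusted p = 0.382). Idi1, the isomerase that interconverts the isoprenoid building blocks, had 5.93 RPKM with sg1 and 6.92 RPKM with sg2, against 10.3 RPKM in the control (log2 fold change -0.68, adjusted p = 0.528).

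Other enzymes of the mevalonate segment lay on the other side of the control or on both sides of it. Pmvk, which encodes phosphomevalonate kinase (chromosome 3, 89454541 to 89469014), had 86.4 RPKM with sg1 and 47.2 RPKM with sg2, against 37.7 RPKM in the control (log2 fold change 0.82, SE 0.481, adjusted p = 0.43). Fdps, the synthase of farnesyl diphosphate, had 92.6 RPKM with sg1 and 74.3 RPKM with sg2, against 51.9 RPKM in the control (log2 fold change 0.68, adjusted p = 0.476). Both exceeded the control in each knock-out library, and neither passed. Mvk, mevalonate kinase, was under the control with sg1 and over it with sg2 (9.60 and 20.6 RPKM, against 11.4 RPKM in the control). Mvd, the diphosphomevalonate decarboxylase gene, also straddled the control, with 20.2 and 28.3 RPKM in the knock-out libraries and 26.8 RPKM in the control. Of the 6 genes of the segment, 0 passed, 2 lay lower and 2 higher with both guides.

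From squalene to cholesterol, 6 of 9 enzymes lay lower with both guides, 0 lay higher with both and 0 passed the test. The genes ran from log2 fold changes of -0.66 to 0.23. Nsdhl encodes a dehydrogenase that takes part in removing methyl groups of the sterol ring (chromosome X, 72918521 to 72958528). It had 10.9 RPKM with sg1 and 12.6 RPKM with sg2, against 18.6 RPKM in the control. Its log2 fold change was -0.66 (SE 0.441, adjusted p = 0.509). The 540 tested genes of chromosome X had a median of -0.18 (sg1) and -0.25 (sg2) on the log2 scale. Nsdhl, at -0.79 and -0.54, lay below that median with both guides. Cyp51, the lanosterol demethylase, had 16.3 and 16.8 RPKM with the guides, against 23.6 RPKM in the control (log2 fold change -0.51, SE 0.41, adjusted p = 0.613). The 2 guides nearly coincided for Cyp51, at 0.683 and 0.717 of the control level.

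Sqle and Lss stand next to each other in the route, making squalene epoxide and closing it to lanosterol. Sqle had 52.2 RPKM with sg1 and 51.8 RPKM with sg2, against 71.0 RPKM in the control (log2 fold change -0.45, adjusted p = 0.663). It lies on chromosome 15, whose 609 tested genes had a median of 0.34 (sg1) and 0.32 (sg2) on the log2 scale, beside 0.01 and 0.04 on the other chromosomes. Sqle, at -0.46 and -0.44, lay below that median with both guides. Lss had 18.0 and 15.4 RPKM with the guides, against 22.04 RPKM in the control. Fdft1, squalene synthase, and Hsd17b7, a sterol ketone reductase, were closer to the control, with fitted log2 fold changes of -0.18 and -0.26.

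The remaining enzymes of late sterol synthesis did not take the same side with both guides. Dhcr7, the last enzyme of 1 branch of the route, had 14.8 RPKM with sg1 and 22.4 RPKM with sg2, against 22.2 RPKM in the control. Msmo1, the methylsterol oxygenase gene, had 27.6 and 37.4 RPKM with the guides, against 27.8 RPKM in the control. The lower library was thus sg1 for both genes, while the other guide matched the control for Dhcr7 and exceeded it for Msmo1. Sc5d, a sterol desaturase, had 16.2 and 13.6 RPKM with the guides and 14.6 RPKM in the control.

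The regulators of the pathway were taken next, and 0 of these 6 genes passed the test. Insig1, which retains SCAP and SREBP in the endoplasmic reticulum and is itself an SREBP target (chromosome 5, 28071412 to 28078662), had 42.1 RPKM with sg1 and 38.5 RPKM with sg2, against 65.6 RPKM in the control. Its window above held 1 NF-Y box. Insig1 lay at 0.634 (95% counting interval 0.611 to 0.657) and 0.593 (0.572 to 0.614) of the control level, a difference that missed the threshold (log2 fold change -0.71, SE 0.402, adjusted p = 0.411). Its relative Insig2 had 7.03 and 7.02 RPKM with the guides, against 7.73 RPKM in the control (log2 fold change -0.14, adjusted p = 0.937). Insig1 therefore made up 86.3% of the counts of the pair with sg1 (95% Clopper-Pearson interval 85.3 to 87.1) and 85.2% with sg2 (84.3 to 86.1), against 89.9% in the control (89.3 to 90.5). By RPKM, the level of Insig1 was 5.98 and 5.48 times that of Insig2 in the knock-out libraries and 8.50 times in the control.

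The SREBP genes themselves stayed near the control. Srebf2, whose product favours sterol genes, had 73.9 RPKM with sg1 and 65.3 RPKM with sg2, against 75.7 RPKM in the control (log2 fold change -0.12, SE 0.4, adjusted p = 0.931). Like Sqle it lies on chromosome 15, and, at -0.05 (sg1) and -0.20 (sg2) on the log2 scale, it lay below the median of that chromosome's genes (0.34 and 0.32) with both guides. Srebf1, whose product favours fatty acid genes, had 111 and 76.6 RPKM with the guides, against 88.6 RPKM in the control (log2 fold change 0.08, SE 0.417, adjusted p = 0.959), so that the control lay between the guides. The share of Srebf1 in the counts of the pair was 58.6% with sg1 (95% interval 58.1 to 59.1) and 52.5% with sg2 (51.9 to 53.0), against 52.4% in the control (51.9 to 53.0). The sg2 and control shares could not be told apart by counting error, and the sg1 share lay above both. Scap, the escort protein gene, had 37.96 and 36.4 RPKM with the guides, against 44.1 RPKM in the control.

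Stard4, a carrier of cholesterol between membranes that is controlled by sterols, differed most between the guides among the regulators. It had 18.6 RPKM with sg1 and 8.87 RPKM with sg2, against 22.6 RPKM in the control (log2 fold change -0.73, SE 0.484, adjusted p = 0.508). The sg1 level was 0.812 of the control (95% counting interval 0.770 to 0.857) and the sg2 level 0.396 (0.371 to 0.422).

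**Figure D2:**
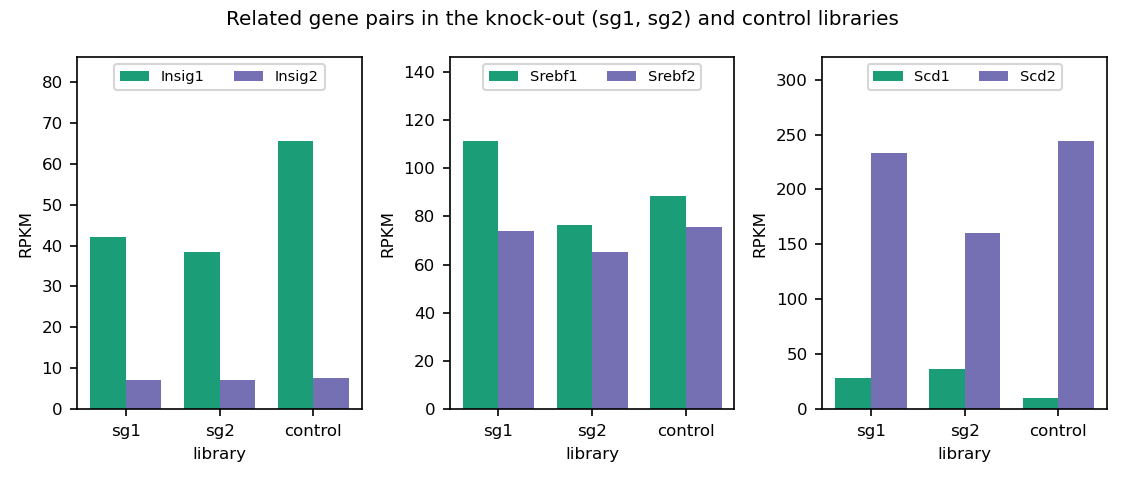
Levels of 3 pairs of related genes in RPKM (linear axes starting at 0) in the knock-out libraries sg1 and sg2 and in the control library, 1 library per bar. Insig1 is shorter in both knock-out libraries while Insig2 is level, Srebf1 and Srebf2 show no common shift, and Scd1 is taller in both knock-out libraries beside the much more abundant Scd2.

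Scd1 was the member that rose. It encodes a stearoyl-CoA desaturase, which puts the double bond into saturated fatty acids (chromosome 19, 44394450 to 44407709). It had 27.9 RPKM with sg1 and 36.4 RPKM with sg2, against 10.4 RPKM in the control, from 6083, 9096 and 2202 counts. Both knock-out libraries lay well above the control, at 157 ± 31.9 CPM (SD, n = 2) against 50.8 CPM, a 3.10-fold difference (log2 fold change 1.63, SE 0.459, adjusted p = 0.0478). It was called in 5 of 9 alternative tests (adjusted p between 0.00727 and 0.118). The call was lost with upper-quartile factors (adjusted p = 0.0589), a mean count of at least 50 (0.0674), limma-voom (0.0598) and limma-trend (0.118).

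Scd2, the neighbouring desaturase gene, was the most abundant member by RPKM in every library and lay under the control with both guides. It had 233 RPKM with sg1 and 160 RPKM with sg2, against 244 RPKM in the control (log2 fold change -0.31, SE 0.384, adjusted p = 0.774). Scd1 made up 9.59% of the counts of the pair with sg1 (95% interval 9.36 to 9.82) and 16.8% with sg2 (16.5 to 17.1), against 3.64% in the control (3.49 to 3.79). Scd2 stayed above Scd1 in all 3 libraries, by 8.36 and 4.40 times in RPKM with the guides and 23.5 times in the control. The genes are related in sequence and the handling of reads that map to both is not given in the sources used here, so reads shared between them are uncertain.

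Me1, the cytosolic malic enzyme that supplies NADPH for fatty acid synthesis (chromosome 9, 86581363 to 86695914), had the largest fitted change of the 29 genes. It had 9.80 RPKM with sg1 and 12.3 RPKM with sg2, against 3.32 RPKM in the control, from 1580, 2263 and 520 counts. At 39.9 ± 6.89 CPM (SD, n = 2) it was 3.33-fold above the control level of 11.99 CPM, yet it missed the threshold (log2 fold change 1.73, SE 0.498, adjusted p = 0.0527) and passed it in 3 of 9 alternative tests (adjusted p between 0.00786 and 0.194). Me1 was also, with Scd1, 1 of the 2 members at least 1.5-fold higher with both guides, beside 18.3% of all genes tested.

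The elongase and core synthetic enzymes were taken last. Elovl6, which elongates palmitate to stearate, the substrate of the desaturases (chromosome 3, 129532386 to 129638495), had 19.5 RPKM with sg1 and 19.1 RPKM with sg2, against 33.8 RPKM in the control. The guides gave the same ratio to the control, 0.571 (95% counting interval 0.551 to 0.591 with sg1 and 0.553 to 0.591 with sg2), and the log2 fold change of -0.81 had an SE of 0.399, since the fit takes most of its spread from all genes together (adjusted p = 0.319). Elovl6 and Insig1 were the 2 members at least 1.5-fold lower with both guides, beside 12.7% of all genes tested. Hmgcs1, at 0.521 and 0.667 of the control level, narrowly missed this cut.

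Fasn, the fatty acid synthase gene, had 84.6 RPKM with sg1 and 92.5 RPKM with sg2, against 94.6 RPKM in the control (log2 fold change -0.10, SE 0.376, adjusted p = 0.945). Acaca, the carboxylase that makes malonyl-CoA, had 10.4 and 10.8 RPKM with the guides, against 11.7 RPKM in the control (log2 fold change -0.15, adjusted p = 0.917). Both are long by the gene length that counts and RPKM together imply (10.03 kb for Fasn and 9.11 kb for Acaca). Their fitted log2 fold changes became 0.38 and 0.28 when a trend of fold change with this length was removed. Acly, which makes cytosolic acetyl-CoA from citrate, had 95.2 and 119 RPKM with the guides, against 80.2 RPKM in the control (log2 fold change 0.42, adjusted p = 0.698). Acss2, which makes acetyl-CoA from acetate, had 5.67 and 4.77 RPKM with the guides, against 5.79 RPKM in the control. Of these 8 fatty acid genes 1 rose and 0 fell, with 5 under and 3 over the control in both knock-out libraries.

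Markers of other cell types that use these pathways were read beside Scd1 and Me1. Of 7 adipocyte markers, 1 was abundant enough to test, the lipase gene Lipe (log2 fold change 0.11, adjusted p = 0.955), and Plin1 and Lep had 0 counts in every library. The summed adipocyte level was 11.2 and 13.3 CPM with the guides, against 11.2 CPM in the control. Of 8 alveolar type II cell markers, 2 of 6 tested rose, Sftpa1 and Sftpb. The summed alveolar level was 124 and 69.2 CPM with the guides, against 86.9 CPM in the control. Most of the control sum was Abca3, which lay lower with both guides (68.7 and 45.1 CPM, against 84.3 CPM in the control). The other 5 tested lay higher with both guides. Among them, Sftpc had 1061 and 109 counts with the guides, against 30 in the control, and missed the edgeR threshold (adjusted p = 0.0536). Of 8 fibroblast markers, 4 of 7 tested rose (Col1a1, Col3a1, Pdgfra and Pdgfrb), and Lum had 0 counts throughout. The summed fibroblast level was 397 and 177 CPM with the guides, against 7.59 CPM in the control. Col1a1 took 224 and 54.4 CPM of the sums with the guides. Col1a2, another collagen gene of the list, had 15 and 6 counts with the guides, against 0 in the control, and did not pass. The part of the fibroblast and alveolar markers in these results was not tested. Of 7 immune and 5 hepatocyte markers 2 each could be tested and 0 passed, with 1 immune (Adgre1) and 2 hepatocyte markers (Alb and Cyp7a1) at 0 counts in every library. The summed immune level was 10.3 and 6.45 CPM with the guides, against 4.98 CPM in the control, and the summed hepatocyte level was 2.26 and 0.791 CPM, against 0.599 CPM in the control.

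**Figure D3:**
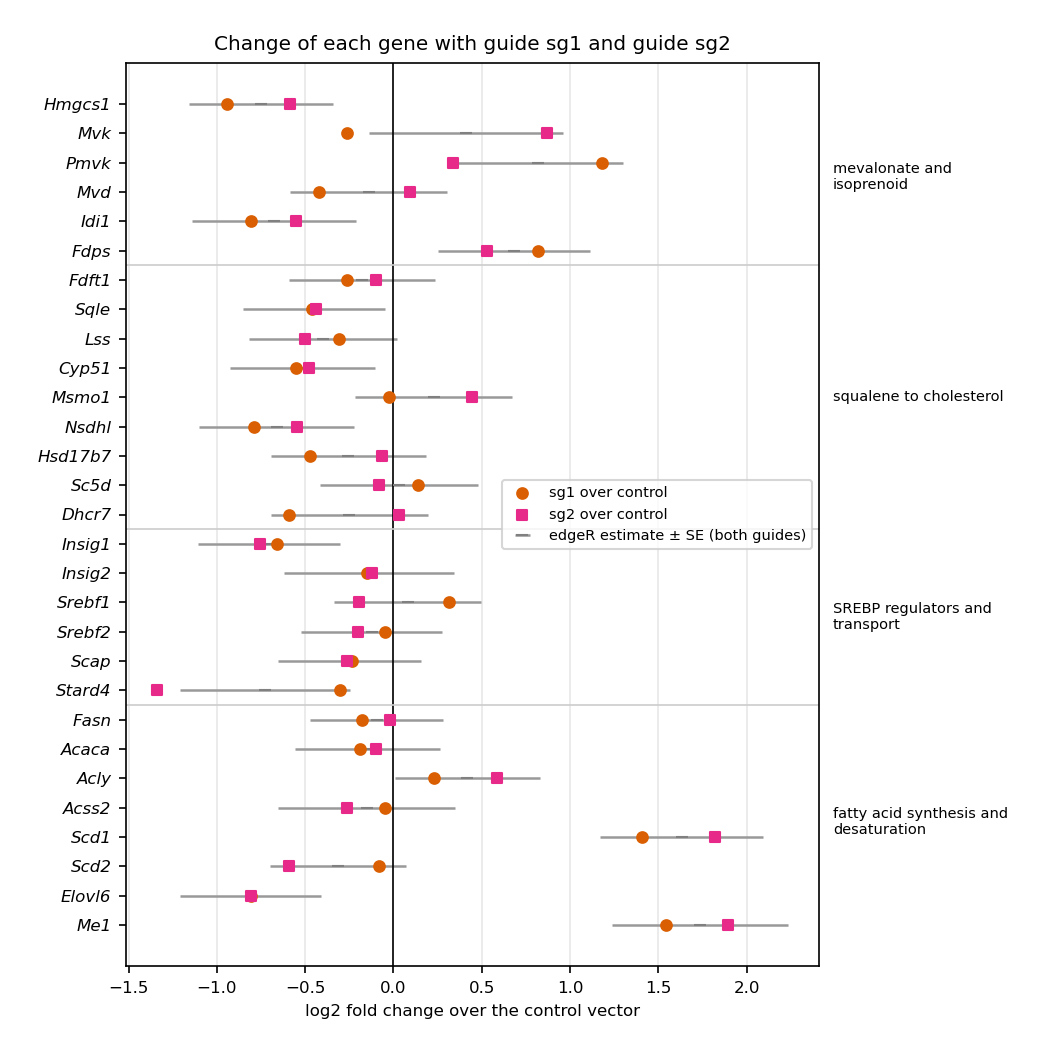
Log2 fold change of each of the 29 genes over the control vector, with sg1 (circles) and sg2 (squares) shown apart, and the edgeR estimate over both guides with its SE (grey). Scd1 and Me1 stand furthest right; the guides coincide for Elovl6 and Sqle and are far apart for Mvk, Pmvk and Stard4.

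The guides were compared with each other, since each had 1 library and their difference is a description without a test. In 25 of 29 members the 95% counting interval of the ratio of sg1 to sg2 excluded 1, with sg1 higher in 10 and sg2 higher in 15. These intervals leave out variation between cultures. The ratio reached 1.5-fold in either direction for 4 members, beside 38.6% of all genes tested. Stard4 and Pmvk were higher with sg1, by 2.05-fold (95% counting interval 1.92 to 2.19) and 1.79-fold (1.72 to 1.87). Mvk and Dhcr7 were lower with sg1, at 0.456 (0.417 to 0.497) and 0.649 (0.613 to 0.687) of the sg2 level. The median size of the log2 difference between guides was 0.25 for members and 0.45 for all genes tested. All genes tested include genes of lower level than any member, and neither this median nor the 38.6% was matched for level.

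Other genes of the same pathways, 40 in all, were counted in 3 lists. Of these 40 genes 1 passed the test, beside 8.03% of all genes tested. In the list of 14 genes of sterol handling, efflux and SREBP processing, 1 rose and 0 fell. The riser was Lipa, the lysosomal acid lipase that frees cholesterol from its esters (chromosome 19, 34492316 to 34527474), with 5.15 RPKM with sg1 and 8.63 RPKM with sg2, against 0.246 RPKM in the control. From 690, 1324 and 32 counts this was a 28.1-fold difference (log2 fold change 4.81, SE 0.722, adjusted p = 0.000942). Lipa passed in 8 of 9 alternative tests and missed in limma-trend (adjusted p = 0.0842). It is also expressed by macrophages. Of the immune markers above, Adgre1 had 0 counts in every library and Ptprc had 0 counts with sg1 and 1 with sg2, against 0 in the control, while Cd68, which encodes a lysosomal protein abundant in macrophages, had 414 and 309 counts with the guides, against 196 in the control, and did not pass. The part of immune cells in the Lipa result was not tested.

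In the list of 10 other sterol and isoprenoid genes, 0 passed, and the medians were -0.05 for sg1 and 0.07 for sg2 on the log2 scale. Those with the largest changes were Ebp, a sterol isomerase (log2 fold change 0.58, adjusted p = 0.63; 19.0 and 32.1 RPKM with the guides, against 17.1 RPKM in the control), and Ggps1, the synthase of geranylgeranyl diphosphate (log2 fold change -0.58, adjusted p = 0.589; 13.6 and 10.3 RPKM, against 17.9 RPKM in the control). In the list of 16 other fatty acid genes, 0 passed, and the medians were 0.04 and -0.14. Lpin1, a phosphatidate phosphatase (log2 fold change -1.27, adjusted p = 0.195), had 3.07 and 1.53 RPKM with the guides, against 5.52 RPKM in the control. Elovl1, an elongase of very long chain fatty acids (log2 fold change 1.196, adjusted p = 0.178), had 21.6 and 27.7 RPKM with the guides, against 10.8 RPKM in the control. At an unadjusted p under 0.05 there were 0, 2 and 4 genes in the 3 lists, in the order sterol and isoprenoid, fatty acid, and handling genes. Over all genes tested, 18.3% had such a p.

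**Figure D4:**
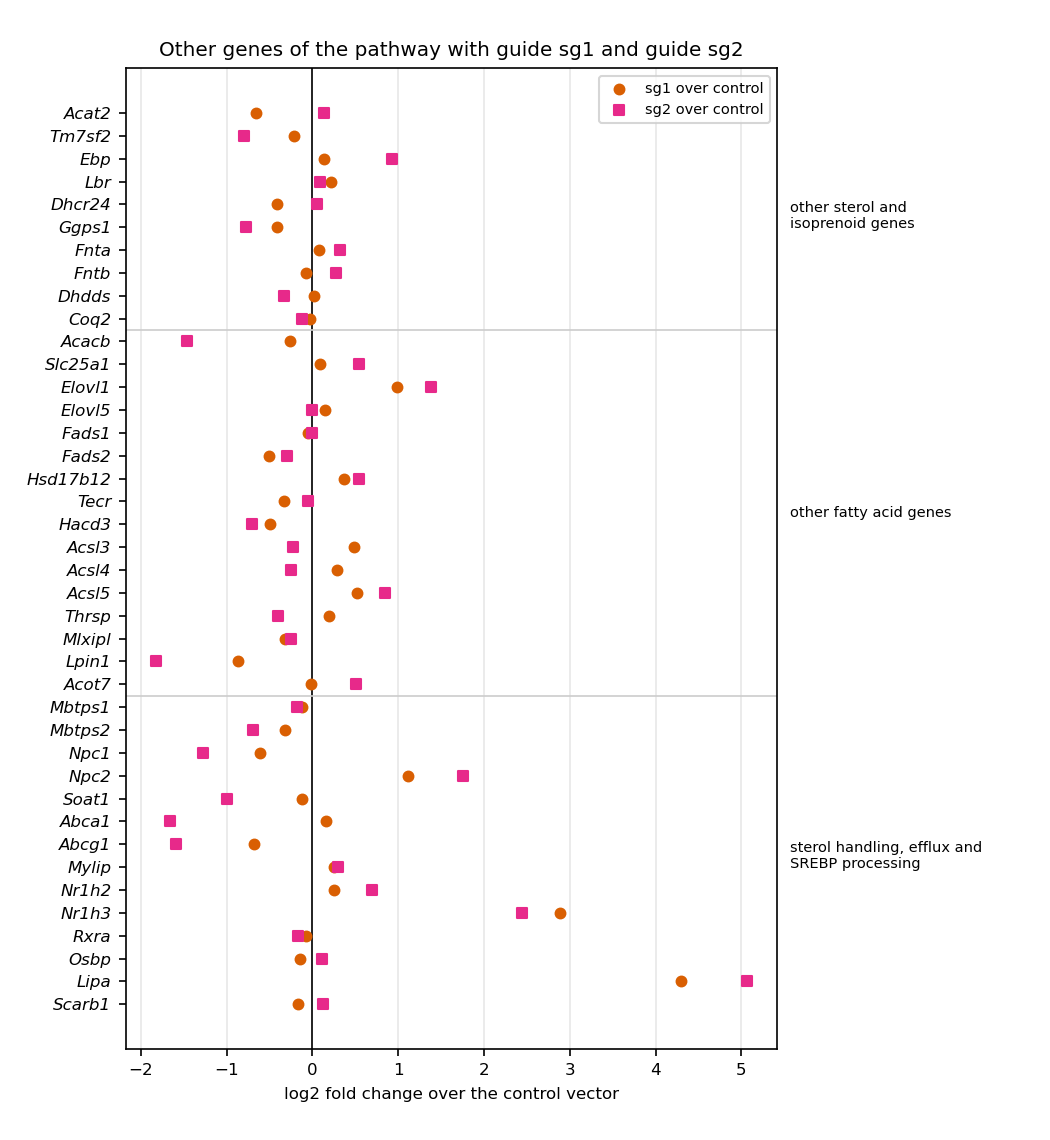
Log2 fold change over the control vector of 40 other genes of the pathways with sg1 (circles) and sg2 (squares), in 3 lists. Lipa stands at the far right with both guides; all 10 genes of the first list lie within 1 log2 unit of the control.

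The lists of differing genes that the authors deposited held 9 members. In the authors' deposited table of lower genes, 2154 in number (8.78% of all genes in the table) with every fold change of guide over control under 0.75, were Hmgcs1, Idi1, Sqle, Cyp51, Nsdhl, Insig1 and Elovl6, 7 in all. The authors' deposited table gave these fold changes between 0.527 and 0.735 with sg1 and between 0.565 and 0.729 with sg2. The authors' deposited table of higher genes, 1833 in number (7.47%), held Scd1 and Me1. The authors' lists rest on fold change in RPKM, and 8 of these 9 genes did not pass the test used here.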

How the data were processed

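RNA of 3 libraries was measured by paired-end sequencing: Kdm1a knock-out (sg1, sg2; 1 library each) and control vector (1 library), grouped by sample title. The authors deposited raw read counts per gene and, per the file headers, RPKM beside them, and lists of differing genes with the fold change (ratio) of each guide over the control. Bowtie2 2.2.3, TopHat2 2.0.12, HTSeq 0.6.1 and mm10 are named in the submitters' processing notes; the sources used here do not give settings, strand or the handling of multi-mapping reads. The column headers say RPKM while the table name says FPKM, so the unit may count fragments. Of the members, 13 overlap another annotated gene, and 8 overlap a counted one (Fdft1, Lss, Srebf1, Srebf2, Acaca, Acss2, Scd2 and Me1). Insig1 overlaps the long non-coding gene Gm35223 over 7251 bases, and Mvd overlaps Gm51557 over 3213 bases. Neither of these is counted, so their reads may have entered the counts of Insig1 and Mvd. The counts of all such members are less certain.

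Counts were tested with edgeR 4.0.16 (R 4.3.3; TMM factors, filterByExpr, quasi-likelihood F test on group, two-sided, Benjamini-Hochberg over 15936 genes; 8587 not tested). The only residual degree of freedom (1) comes from the 2 guides and is combined with a prior of 11.5 shared by all genes, which assumes that the lone control varies likewise. The SE is the log2 fold change over the square root of F. Folds are ratios of mean CPM, and log2 fold changes per guide use a prior count of 2. Counting intervals are exact, at 95%. They reflect counting error alone, as PCR copies of a molecule cannot be recognised here. All 29 members passed the filter on low counts. Positions were matched by Entrez identifier to GRCm38.p6, the assembly of mm10.

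Members and gene lists were chosen with earlier results of these data known. The naming rule gave full statistics to the 2 members with the largest fitted change per role, members that passed, 3 related pairs and Kdm1a, and, of each other list, to those that passed or else the 2 largest. Statistics printed for any other member, such as Elovl6, Fdps, Idi1, Sqle, Fasn, Acaca and Acly, were chosen after their values were seen. Alternatives were DESeq2 1.42.0 size factors and Wald test, upper-quartile factors, no filter beyond 1 count, a mean count of at least 50, limma 3.58.1 (voom, or trend on log2(RPKM + 1)), library totals, a prior count of 0.5 or 10, a fit without chromosome 15, a loess correction for gene length, and each guide left out.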

Additional observations from a re-analysis of the deposited data

How the results depend on the processing

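No paired analysis was possible, because the single control library served for both guides and the titles pair no libraries. The count of 1 member called higher became 0 with upper-quartile factors, a mean count of at least 50, limma-voom and limma-trend, and 2 (Scd1 and Me1) without the filter, with the length correction and with the DESeq2 Wald test; the other 2 alternative tests gave 1, and the 9 tests called 0 members lower. The count of other pathway genes called higher was 2 (Lipa and Npc2) without the filter and with DESeq2, 0 with limma-trend and otherwise 1. For Scd1 the adjusted p ran from 0.00727 to 0.118, for Me1 from 0.00786 to 0.194, for Kdm1a from 0.0166 to 0.127 and for Lipa from 4.74e-12 to 0.0842. The medians kept their sign and the count of 18 members lower with both guides ran from 15 (length correction) to 18. The count of 2 members at least 1.5-fold lower with both guides became 3 with DESeq2 size factors, library totals and log2(RPKM + 1). The length correction turned the sign of Fasn (0.38), Acaca (0.28), Srebf2 (0.013) and Sc5d (-0.045). Leaving out a guide leaves 1 library against 1, a value with no test. The log2 fold change then ran from -0.59 without sg2 to 0.029 without sg1 for Dhcr7, from -0.42 to 0.094 for Mvd, from -0.26 to 0.87 for Mvk and from -0.027 to 0.44 for Msmo1, and from 0.14 without sg2 to -0.082 without sg1 for Sc5d and from 0.31 to -0.20 for Srebf1. Over all genes, where 1008 were called higher and 271 lower, the lower calls were 511 without the filter and 180 with a mean count of at least 50, limma-voom called 513 higher and 198 lower, and limma-trend 27 and 4. In RPKM in place of counts, Scd1 made up 10.7% and 18.5% of its pair with the guides, against 4.08% in the control, and Srebf1 60.1% and 54.0%, against 53.9%; the Insig1 shares stayed within their intervals. The cause of these differences was not tested. The lowest member count was 520. The counting interval of the ratio between guides excluded 1 in 25 of 29 members and included it for Elovl6, Sqle, Scap and Insig2, and 1 control library limits the tests.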

Other observations

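Beside Lipa, 3 other genes of sterol handling had an unadjusted p under 0.05, as had 18.3% of all genes tested. The 3 genes missed the adjusted threshold and were chosen after their values were seen. Npc2, which carries cholesterol out of the lysosome, had 24.7 RPKM with sg1 and 37.5 RPKM with sg2, against 11.3 RPKM in the control (log2 fold change 1.47, SE 0.479, adjusted p = 0.0907 with edgeR). Npc1, of the same list and also picked after its values were seen, is not 1 of these 3 genes (unadjusted p = 0.0672 with edgeR). It overlaps another counted gene, Rmc1, over 8982 bases, so its counts are less certain. Npc1 lay lower with both guides, at 6.58 and 4.06 RPKM, against 9.97 RPKM in the control. Its log2 fold change was -0.91 (SE 0.454, adjusted p = 0.327 with edgeR). Nr1h3, the sterol-sensing nuclear receptor LXR alpha, had 135 and 111 counts with the guides, against 16 counts in the control (log2 fold change 2.80, SE 1.01, adjusted p = 0.134). Abcg1, a cholesterol exporter, had 13.8 and 7.19 RPKM with the guides, against 21.9 RPKM in the control (log2 fold change -1.07, SE 0.457, adjusted p = 0.228). Abca1, another exporter, had 1.73 RPKM with sg1 and 0.478 RPKM with sg2, against 1.54 RPKM in the control, so the control lay between the guides.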
